A study of Mus musculus with 28 samples.

Results

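A group of 75 features, of 28661 counted, was well represented in bulk mouse hippocampus and scarce in single neurons of the same tissue. The features were chosen by level: each had 10 CPM or more (CPM, the reads of a feature per 1000000 reads assigned to features in its library) in each of 3 bulk hippocampus libraries, and below 1 CPM in each of 8 single hippocampal neurons taken from tissue. The 75 members made up 0.262% of all features, and 1.01% of the 7429 that reached 10 CPM in each bulk library. The choice used only those 11 libraries, so the levels of the members there are a description. The libraries outside the choice, 15 from cultured neurons and 2 from cortical tissue neurons, carry the results.

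All 28 libraries came from C57BL/6 mice, and 17 of them were not used to choose the members. These were 2 cortical neurons captured from tissue by TIVA, 4 cultured cortical neurons captured by TIVA and 4 drawn up by pipette, and 4 cultured hippocampal neurons captured by TIVA and 3 by pipette. The members were chosen on 5 hippocampal tissue neurons captured by TIVA, 3 hippocampal tissue neurons named as pipette collected, and the 3 bulk hippocampus libraries. TIVA (transcriptome in vivo analysis) loads cells with a caged tag that a laser opens in a chosen cell, where it binds polyadenylated RNA for capture. Tissue was cut as acute coronal slices from mice 8 to 10 days old, and cultures were 7 to 9 days old. For TIVA, cultured cells received 10 µM tag for 15 min and a laser at 30% power, and tissue received 30 µM for 90 min and 80% power. After the tag was opened, the surrounding field was aspirated together with the chosen cell, and all RNA passed through 3 rounds of linear amplification. The strain was the same in all groups, and the labels give no treatment other than the tag.

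The hippocampus holds excitatory pyramidal and granule neurons, several kinds of inhibitory interneuron, astrocytes, the oligodendrocyte lineage, microglia and the cells of vessels and membranes. A bulk library sums all of them, whereas a library of a single neuron samples the transcripts of that cell, and a pyramidal neuron normally lacks many transcripts that glial, vascular and inhibitory cells make. In bulk tissue, fewer cells of a type and less RNA per cell cannot be told apart. The files name features by UCSC known-gene identifiers and pair them with no gene. None of the 226 identifiers within the 75 member names matched the gene tables used here, so no member is given a gene name, a cell type or a sequence, and the neuronal label of the cells could not be checked against marker genes.

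Depth and library quality touched these results as follows. Assigned reads ranged from 5295130 to 59048065 per library. At those depths 1 CPM stood for 24.1 to 33.4 reads in the TIVA neurons of hippocampal tissue and for 6.64 to 11.6 reads in the pipette neurons. Reads outside features made up 15.8% to 30.3% of the counted reads in the hippocampal tissue pipette neurons and 15.8% to 39.2% in the TIVA ones. They made up 17.6% and 18.8% in cortical tissue neurons, 43.4% to 67.5% in cultured cortical TIVA, 46.7% to 81.1% in cultured cortical pipette, 19.9% to 38.4% in cultured hippocampal TIVA and 31.5% to 75.3% in cultured hippocampal pipette neurons. The share in bulk tissue was 21.1% to 30.5%. The protocol text of the hippocampal tissue pipette neurons describes TIVA capture, against their source name and against a treatment label that gives no tag, and the text of the cortical tissue neurons places the imaging in hippocampal CA1. Without those 3 libraries the same limits gave 136 features, and with those 3 alone they gave 439. The first bulk library also set the size of the group, since 162 features met the limits without it. No test was run on any difference below, because a neuron library holds a single cell of unstated animal or culture and no animal is given for the bulk libraries, so each group counts as 1 sample and n is a number of libraries.

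The members were low in hippocampal tissue neurons, yet most were not strictly absent. At 0 reads in all 8 neurons were 11 of the 75, and 51 stayed under 0.5 CPM in every one. The other 24 had 0.5 to 1 CPM in at least 1 neuron. The reads of a member summed over the 8 neurons had a median of 5 and a highest value of 39. All 75 together held 657 reads in the 5 TIVA neurons, or 4.78 CPM (exact Poisson interval at 95%, 4.42 to 5.15). In the 3 pipette neurons they held 109 reads, or 4.17 CPM (3.43 to 5.03), against 290181 reads, or 2472 CPM (2463 to 2481), in bulk tissue. These intervals cover counting error only. A count of 0 allowed up to 0.0897 to 0.124 CPM in a TIVA neuron and 0.258 to 0.452 CPM in a pipette neuron.

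Members lay low in bulk tissue compared with the other bulk features. Their mean bulk level had a median of 21.8 CPM (11.9 to 228), against 50.2 CPM for the 7354 other features at 10 CPM or more in each bulk library. Levels from 10 to 20 CPM were held by 31 members, levels from 20 to 50 CPM by 36, and levels of 50 CPM or more by 8. The members made up 3.42% of all bulk features in the lowest of these ranges, 1.27% in the middle and 0.217% in the highest. Bulk libraries gave similar levels of a member, since the highest library exceeded the lowest by a median of 1.62-fold for members and 1.87-fold for the other bulk features. A range over 3-fold was found in 8 members (10.7%), against 14.0% of the other bulk features. Near the limits of the choice, the members closest to 1 CPM in a tissue neuron peaked at 0.995 and 0.981 CPM and the nearest features left out at 1.02 and 1.09 CPM. The lowest bulk level of a member was 10.1 CPM, and the nearest features left out for their bulk level had 9.85 CPM.

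The names and rows of the members were also described. Names of single identifiers made up 24% of members and 30.5% of the other bulk features, and a member name joined a median of 3 identifiers against 2. No members stood on adjacent rows of the table. The closest pair was 4 rows apart and the median gap was 248.5 rows.

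Cultured neurons, which played no part in the choice, held a share of the members that varied widely between libraries. The share of members at 10 CPM or more was 68.0%, 56.0%, 62.7% and 32% in the 4 cultured cortical TIVA libraries, and 29.3%, 18.7%, 20% and 33.3% in the 4 cultured cortical pipette libraries. It was 49.3%, 29.3%, 26.7% and 64.0% in the 4 cultured hippocampal TIVA libraries, and 26.7%, 29.3% and 16.0% in the 3 cultured hippocampal pipette libraries. The lowest cultured library thus held 16.0% of the members at this level. The other bulk features were found far more often at this limit, with group medians of 91.2%, 77.0%, 83.7% and 89.6% in the same order of groups. In all 15 cultured libraries the share of members was below that of the other bulk features.

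**Figure D1:**
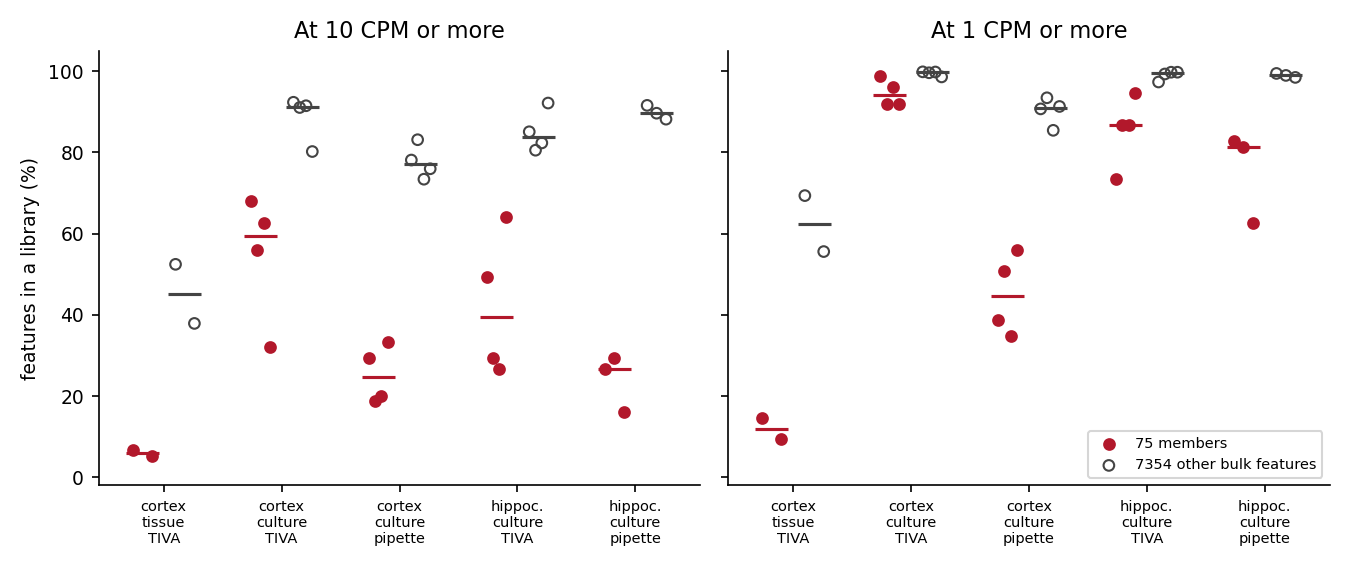
Share of the 75 members (filled points) and of the 7354 other bulk features (open points) at 10 CPM or more (left) and at 1 CPM or more (right), 1 point per library, with a line at each group's median. At 1 CPM the cultured TIVA libraries held 73.3% to 98.7% of members, and cultured cortical pipette libraries 34.7% to 56.0%.

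At the lower limit of 1 CPM the TIVA and pipette libraries of cultured cortex no longer overlapped. Cultured cortical TIVA libraries held 98.7%, 92.0%, 96.0% and 92.0% of members, and cultured cortical pipette libraries 38.7%, 50.7%, 34.7% and 56.0%. Cultured hippocampal TIVA libraries held 73.3%, 86.7%, 86.7% and 94.7%, and cultured hippocampal pipette libraries 82.7%, 81.3% and 62.7%. The ranges of the 2 cortical groups did not overlap, with a difference of medians of 49.3 percentage points, whereas those of the 2 hippocampal groups did, with a difference of 5.33 percentage points. Among the other bulk features the corresponding differences were 8.69 and 0.571 percentage points. Their cortical ranges did not overlap either, at 98.6% to 99.8% by TIVA and 85.4% to 93.4% by pipette. Their hippocampal ranges did, at 97.3% to 99.7% and 98.4% to 99.4%. Shares so near the top of the scale leave less room for a difference in points.

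Within ranges of bulk level, too, members were found less often in culture than other bulk features, by the median over cultured libraries. Among features with a bulk mean of 20 to 50 CPM, a median of 36.1% of the 36 members reached 10 CPM in a cultured library (16.7% to 77.8% over 15 libraries), against 78.2% of the 2792 other features (64.2% to 92.0%). At 50 CPM or more in bulk the shares were 37.5% of 8 members (0% to 62.5%) and 97.1% of 3687 other features (87.2% to 99.6%). At 10 to 20 CPM the shares were 29.0% of 31 members (12.9% to 67.7%) and 56.6% of 875 other features (33.4% to 73.3%). The gap in this lowest range differed between groups. Median shares of members and others were 51.6% and 60.9% in cortical TIVA and 32.3% and 51.8% in cortical pipette culture. In hippocampal culture they were 35.5% and 47.8% by TIVA, and 19.4% and 68.1% by pipette.

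Breadth across cultured cells was graded, not all-or-none. A member reached 10 CPM in a median of 6 of the 15 cultured libraries, and the broadest member in 14. There were 24 members at 10 CPM in 8 or more libraries, 44 in 1 to 7, and 7 in none. Of the other bulk features, 42.3% were at 10 CPM in all 15 libraries and 0.272% in none, compared with 0% and 9.33% of the members. In exactly 3 libraries were 0.544% of the other bulk features and 12% of the members, and in exactly 14 were 15.6% and 1.33%. All 75 members reached 1 CPM in at least 1 cultured library, and 6 did so in every one. Of the other bulk features, 99.97% reached 1 CPM in at least 1 cultured library and 73.4% in every one, against 100% and 8% of the members. The highest cultured library exceeded every bulk library in 50 members (66.7%), against 87.7% of the other bulk features.

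**Figure D2:**
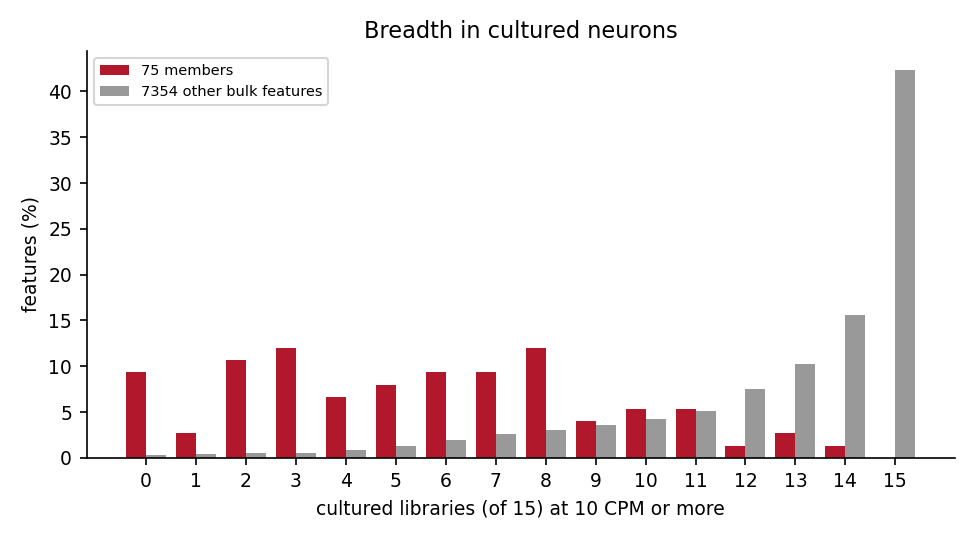
Percentage of the 75 members (red bars) and of the 7354 other bulk features (grey bars) by the number of cultured libraries, of 15, in which the feature was at 10 CPM or more. Members spread over the low and middle numbers, with 9.33% of them in no library, while 42.3% of the other features were found in all 15.

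How often a bulk feature was missing from hippocampal tissue neurons went with how often it was found in culture and in cortex, and the members stood at the end of that series. Bulk features were ordered by the number of the 8 hippocampal tissue neurons in which they lay below 1 CPM. The 3552 features below 1 CPM in 0 of 8 neurons had a median share of 95.9% at 10 CPM or more over the 15 cultured libraries. The share was 68.1% for the 442 features missing from 4 neurons, 36.7% for the 120 missing from 7, and 29.3% for the members, missing from all 8. At 1 CPM the same shares were 99.9%, 97.1%, 92.5% and 82.7%. Median bulk levels of these 4 classes were 95.96, 25.4, 22.2 and 21.8 CPM.

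**Figure D3:**
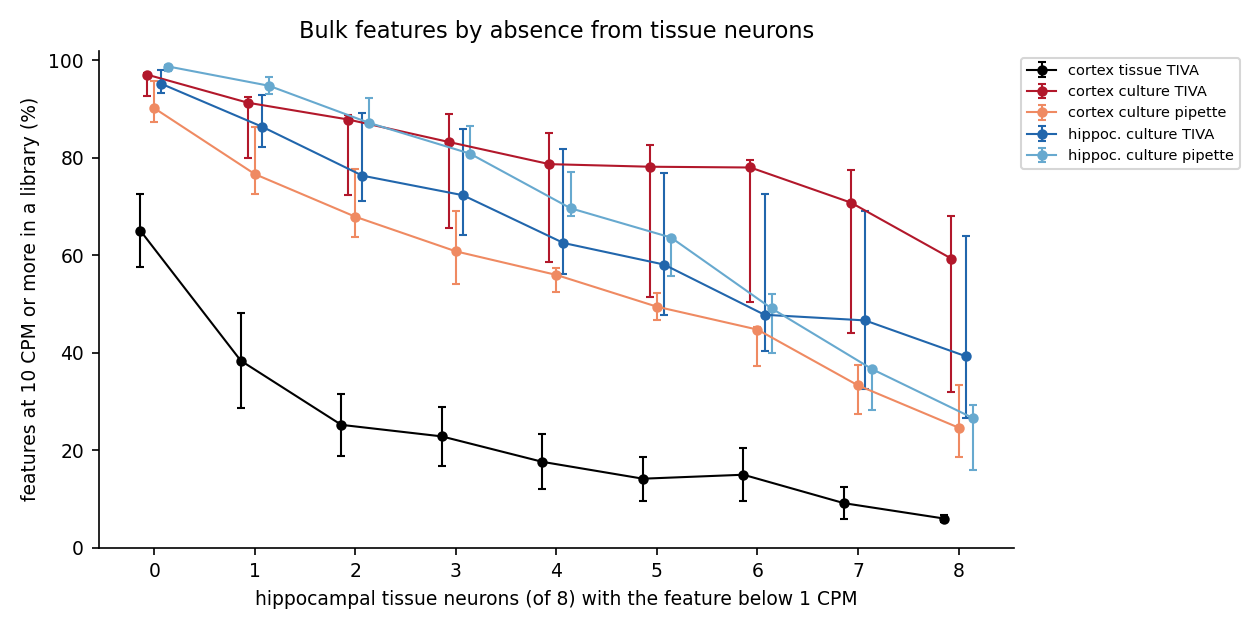
Share of bulk features that reached 10 CPM per library (y axis, median with the lowest and highest library as bars) against the number of the 8 hippocampal tissue neurons in which the feature was below 1 CPM (x axis), for each group outside the choice. Each of the 5 groups has its lowest share at 8, where the members stand, and cortical tissue neurons were lowest throughout.

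Cortical tissue neurons held few of the members. At 10 CPM or more were 6.67% and 5.33% of the members in the 2 libraries, against 52.4% and 37.9% of the other bulk features. Below 1 CPM in both were 60 of 75 members (80%), against 21.5% of all bulk features. At 0 reads in both were 44 members, a count that was not taken for all bulk features. The share below 1 CPM in both was 5.63% for bulk features missing from 0 of 8 hippocampal tissue neurons, 48.2% for those missing from 4 and 65% for those missing from 7. These cortical libraries had 7892762 and 5295130 reads, and a count of 0 in them allowed up to 0.380 and 0.567 CPM.

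Among the 15 members at 1 CPM or more in at least 1 cortical tissue neuron, levels ranged widely. A single member was at 10 CPM or more in both neurons, against 27.5% of all bulk features, and 7 were so in 1 of them. In the first neuron 11 members (14.7%) reached 1 CPM and in the second 7 (9.33%) did, against 69.3% and 55.6% of the other bulk features. At 10 CPM or more were 5 and 4 members. At 100 CPM or more were 4 members (5.33%) in the first neuron, the highest at 362 CPM, against 23.4% of the other bulk features. In the second neuron 3 members (4%) were, the highest at 307 CPM, against 17.99%. No member exceeded 100 CPM in both. Summed over members, the cortical tissue neurons held 874 and 894 CPM. The largest member made up 41.4% and 34.4% of those sums.

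Compared with cultured cortical neurons captured by the same method, cortical tissue neurons were lower in 60 of 75 members, counted where the ranges did not overlap and the mean log2(CPM + 1) differed by 1 or more. Of all bulk features 45.3% were lower by this measure. No member was higher, while 6.64% of all bulk features were. The median difference over members was −3.48 on the log2(CPM + 1) scale, and −2.09 over all bulk features. The setting, the tag dose, the loading time, the laser power, the depth and the share of reads outside features (17.6% and 18.8% in tissue, 43.4% to 67.5% in culture) all moved together here, and their parts in the difference cannot be told apart.

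Within culture, more members were higher by TIVA than were lower, though most passed in neither direction. In cortex 24 of 75 members were higher in TIVA than in pipette libraries with ranges apart, against 4.55% of all bulk features, and 0 members were lower, against 8.79%. The median TIVA minus pipette difference was 1.69 (log2(CPM + 1)) over members and −0.0026 over all bulk features. Above 0 lay 69 members (92%), against 49.8% of all bulk features. In hippocampus 14 of 75 were higher by TIVA, against 3.82% of all bulk features, and 4 were lower, against 24.0%. There the median difference was 0.67 over members and −0.65 over all bulk features, and 55 members (73.3%) lay above 0, against 26.2%. Both differences were above 0 in 52 members, and in 1424 of the 7429 bulk features.

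**Figure D4:**
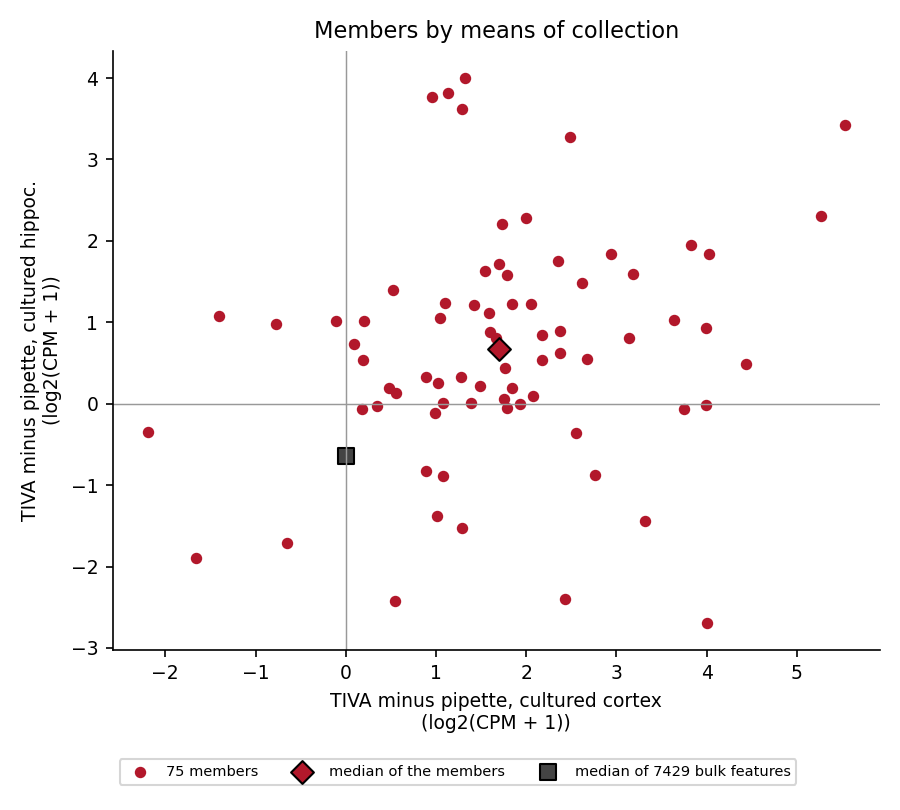
TIVA minus pipette difference in mean log2(CPM + 1) for each of the 75 members (points), in cultured cortex (x axis) and cultured hippocampus (y axis), with the median of the members (diamond) and of the 7429 bulk features (square). Most members lie right of and above 0, and their median of 1.69 and 0.67 stands apart from −0.0026 and −0.65 over all bulk features.

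The size of the hippocampal difference rested on scaling and on single libraries. With TMM scaling 27 of the same 75 members were higher by TIVA in hippocampus, against 12.7% of all bulk features. With DESeq2 size factors 28 were, against 15.5%. The count was 28, against 13.7%, with CPM taken without the 50 most abundant features, and 23 without the first pipette library. Ranges of fewer libraries part more easily for any feature, and the share of all bulk features was not taken without that library. Members lower by TIVA numbered 1, 0 and 1 with TMM, DESeq2 size factors and CPM without the 50 most abundant features, against 8.25%, 6.77% and 8.48% of all bulk features. These scalings moved the median of all bulk features to between 0.13 and 0.24, and the members stood 1.12 to 1.27 above it, compared with 1.32 by library totals. In cortex the count was 25, 29 and 29 under the same 3 scalings, against 5.76%, 9.02% and 9.52% of all bulk features. The members there stood 1.54 to 1.72 above the median of all bulk features, compared with 1.70 by library totals. The difference of medians in the share of members at 10 CPM was 34.7 percentage points in cortex, against 14.2 for the other bulk features. In hippocampus it was 12.7 percentage points, against −5.94. For members it was 2.67 percentage points without the first or without the fourth TIVA library, 22.7 without the second or the third, and 8.33 without the first bulk library. It was also 7.07 without the third TIVA neuron of hippocampal tissue.

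The TIVA excess also followed absence from hippocampal tissue neurons across all bulk features. In cortex the median TIVA minus pipette difference was −0.34 for features missing from 0 of the 8 tissue neurons, 0.68 for those missing from 4, 1.52 for those missing from 7 and 1.69 for the members. In hippocampus it was −0.87, −0.25, 0.47 and 0.67. The share of features higher by TIVA with ranges apart was 2.45%, 8.82%, 20% and 32% in cortex, and 2.11%, 7.01%, 15.8% and 18.7% in hippocampus. The weight of the most abundant features moved with the means of collection in culture. The 50 most abundant features took 24.5% to 61.5% of reads in cortical TIVA and 13.9% to 19.4% in cortical pipette libraries. In hippocampal culture they took 25.2% to 66.6% by TIVA and 14.2% to 18.3% by pipette, and their part in the difference was examined only through the scalings above.

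Pipette neurons of cultured cortex held few members, and held some of them at high levels, which were more common among the other bulk features. The median member was at 18.5, 11.6, 14.8 and 6.18 CPM in the 4 TIVA libraries of cultured cortex, against 0.304, 1.32, 0.178 and 3.21 CPM in the 4 pipette libraries. The highest member reached 107, 139, 225 and 54.9 CPM by TIVA, and 305, 409, 330.1 and 1485 CPM by pipette. A different member led in each of the 4 pipette libraries. At 100 CPM or more were 1.33% to 8% of members by pipette and 0% to 4% by TIVA. Of the other bulk features, 28.9% to 31.2% reached that level by pipette and 12.01% to 26.5% by TIVA. A larger share at this level by pipette was therefore not particular to the members. Summed over members, TIVA libraries held 706 to 1974 CPM and pipette libraries 970.1 to 3046 CPM, so the sums overlapped where the numbers of members found at 1 CPM did not. The largest member made up 5.39% to 12.7% of the sum by TIVA and 23.6% to 48.7% by pipette.

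Cortical pipette cells differed from each other in which members they held. At 10 CPM or more in 1 such cell and below 1 CPM in another were 38 of 75 members, against 22.9% of all bulk features. In cultured cortical TIVA neurons 1 member did so, against 0.915%. The counts were 10 in cultured hippocampal TIVA neurons, against 2.03%, 7 in cultured hippocampal pipette neurons, against 0.498%, and 6 in cortical tissue neurons, against 20.2%. Such a split is easier to meet with more libraries, and a limit in every library is harder. The groups held 4 libraries each, except 3 in cultured hippocampal pipette and 2 in cortical tissue neurons. Members at 10 CPM or more in every library of a group numbered 16 in cultured cortical TIVA neurons (74.5% of all bulk features), 2 in cultured cortical pipette neurons (50.8%), and 8 in each cultured hippocampal group (69.1% by TIVA, 82.2% by pipette). Below 1 CPM in every library were 16 members in cultured cortical pipette neurons (1.12% of all bulk features), 0 in cultured cortical TIVA neurons (0.0808%), and 4 by TIVA (0.148%) and 6 by pipette (0.404%) in hippocampal culture.

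Between regions, cultured TIVA neurons of cortex held somewhat more of the members than those of hippocampus. The difference in the median share at 10 CPM was 20 percentage points, against 7.56 among the other bulk features. The ranges of members overlapped, at 32% to 68.0% in cortex and 26.7% to 64.0% in hippocampus. The difference for members was 10 percentage points without the second or the third hippocampal TIVA library. It was 1.79 with DESeq2 size factors and 0.800 outside the 50 most abundant features. With ranges apart, 9 members were higher in cortex, against 2.29% of all bulk features, and 4 were lower, against 1.59%. For pipette neurons the shares of members at 10 CPM overlapped. The difference of medians was −2 percentage points for members and −12.6 for the other bulk features. The direction for members turned with the processing, to 11.1 with TMM and 5.36 with DESeq2 size factors, and it was −11.1 at a bulk limit of 20 CPM. With ranges apart, 1 member was higher in cortex, against 3.59%, and 10 were lower, against 8.82%. At 1 CPM cortical pipette neurons held fewer members in every library, at 34.7% to 56.0% against 62.7% to 82.7% in hippocampal pipette neurons. The other bulk features did not overlap at this limit either, at 85.4% to 93.4% in cortical and 98.4% to 99.4% in hippocampal pipette neurons.

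Set against bulk tissue, the median member was lower in each of the 5 groups. The choice used the bulk levels, which favours this direction, so it is given as a description. The median log2(CPM + 1) difference from bulk was −4.17 in cortical tissue TIVA neurons, −0.70 in cultured cortical TIVA, −2.61 in cultured cortical pipette, −1.47 in cultured hippocampal TIVA and −2.56 in cultured hippocampal pipette neurons. Over all bulk features these medians were −2.58, −0.48, −0.42, −0.73 and −0.07. The median for cultured cortical TIVA neurons was −0.35 without the fourth library. With ranges apart, 68, 23, 37, 38 and 54 members were lower than in bulk tissue, in the same order of groups, against 53.8%, 13.7%, 9.10%, 16.9% and 16.3% of all bulk features. A single member was higher than in bulk tissue, in cultured hippocampal pipette neurons, where 12.3% of all bulk features were. The other 4 groups had 0 higher members, against 3.90%, 0.700%, 3.32% and 0.256% of all bulk features.

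Members are illustrated by the 2 with the highest and the 2 with the lowest mean difference of the 4 cultured groups from bulk tissue. The feature uc009aeq.2 was found in culture at its bulk level. It had 30.2, 10.6, 18.95 and 8.30 CPM in cultured cortical TIVA and 26.04, 11.4, 0.891 and 63.3 CPM in cultured cortical pipette libraries. Cultured hippocampal libraries had 38.6, 10.9, 9.49 and 9.09 CPM by TIVA and 17.8, 15.04 and 11.7 CPM by pipette, against 17.5, 10.8 and 13.6 CPM in bulk tissue. The cultured and bulk ranges overlapped in every group, and the mean log2 difference was 0.05. In hippocampal tissue it had 0.647, 0.174, 0, 0.0414 and 0.0755 CPM by TIVA and 0 reads in all 3 pipette neurons, and in cortical tissue 0.380 and 0 CPM.

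The feature named uc011ywf.1:uc011ywh.1:uc007pln.2:uc007plo.2:uc011ywg.1:uc007plm.2, which joins 6 identifiers, was likewise near its bulk level in culture, with a mean log2 difference of −0.02. It had 12.5, 14.4, 12.9 and 2.51 CPM in cultured cortical TIVA libraries and 59.6, 4.01, 35.5 and 4.60 CPM in cultured cortical pipette libraries. Hippocampal cultures separated by the means of collection, with 7.38, 11.1, 10.6 and 12.3 CPM by TIVA and 23.3, 58.05 and 32.9 CPM by pipette, against 10.3, 19.9 and 16.9 CPM in bulk tissue. The TIVA range lay below the pipette range, with a log2 difference of −1.71. This member therefore ran against the TIVA excess of the group. It had 0 reads in both cortical tissue neurons and at most 0.904 CPM in a hippocampal tissue neuron.

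The feature uc012fxo.1:uc009kod.2:uc012fxp.1, which joins 3 identifiers, was close to bulk-only. It had 1.31, 0, 0.0647 and 1.74 CPM in cultured cortical TIVA libraries, and 0, 0, 0 and 0.781 CPM in cultured cortical pipette libraries. Cultured hippocampal libraries had 1.18, 0.496, 0.763 and 2.08 CPM by TIVA and 0.505, 0.265 and 2.04 CPM by pipette, against 14.9, 72.9 and 104 CPM in bulk tissue. Every cultured library lay below every bulk library, and the mean log2 difference was −4.94. Its bulk level itself varied, the first bulk library being far below the others. Both cortical tissue neurons had 0 reads of it.

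The feature uc007eba.1 had the highest bulk level of all members, at 206, 266 and 212 CPM, and followed the means of collection in hippocampal culture. It had 112, 34.01, 38.2 and 143 CPM in cultured hippocampal TIVA libraries and 1.72, 0.973 and 13.8 CPM in cultured hippocampal pipette libraries, with ranges apart and a log2 difference of 4.00. In summed reads this was 5277, or 68.8 CPM, by TIVA and 482, or 8.91 CPM, by pipette. Cultured cortical libraries had 11.9, 3.48, 29.8 and 3.38 CPM by TIVA and 0.152, 0, 0.445 and 119 CPM by pipette, so that a single pipette cell stood above every cortical TIVA cell and the others below them all. By TIVA the cortical range lay below the hippocampal range, with a log2 difference of −2.87. In cortical tissue it had 0 and 0.189 CPM, and in hippocampal tissue at most 0.766 CPM.

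**Figure D5:**
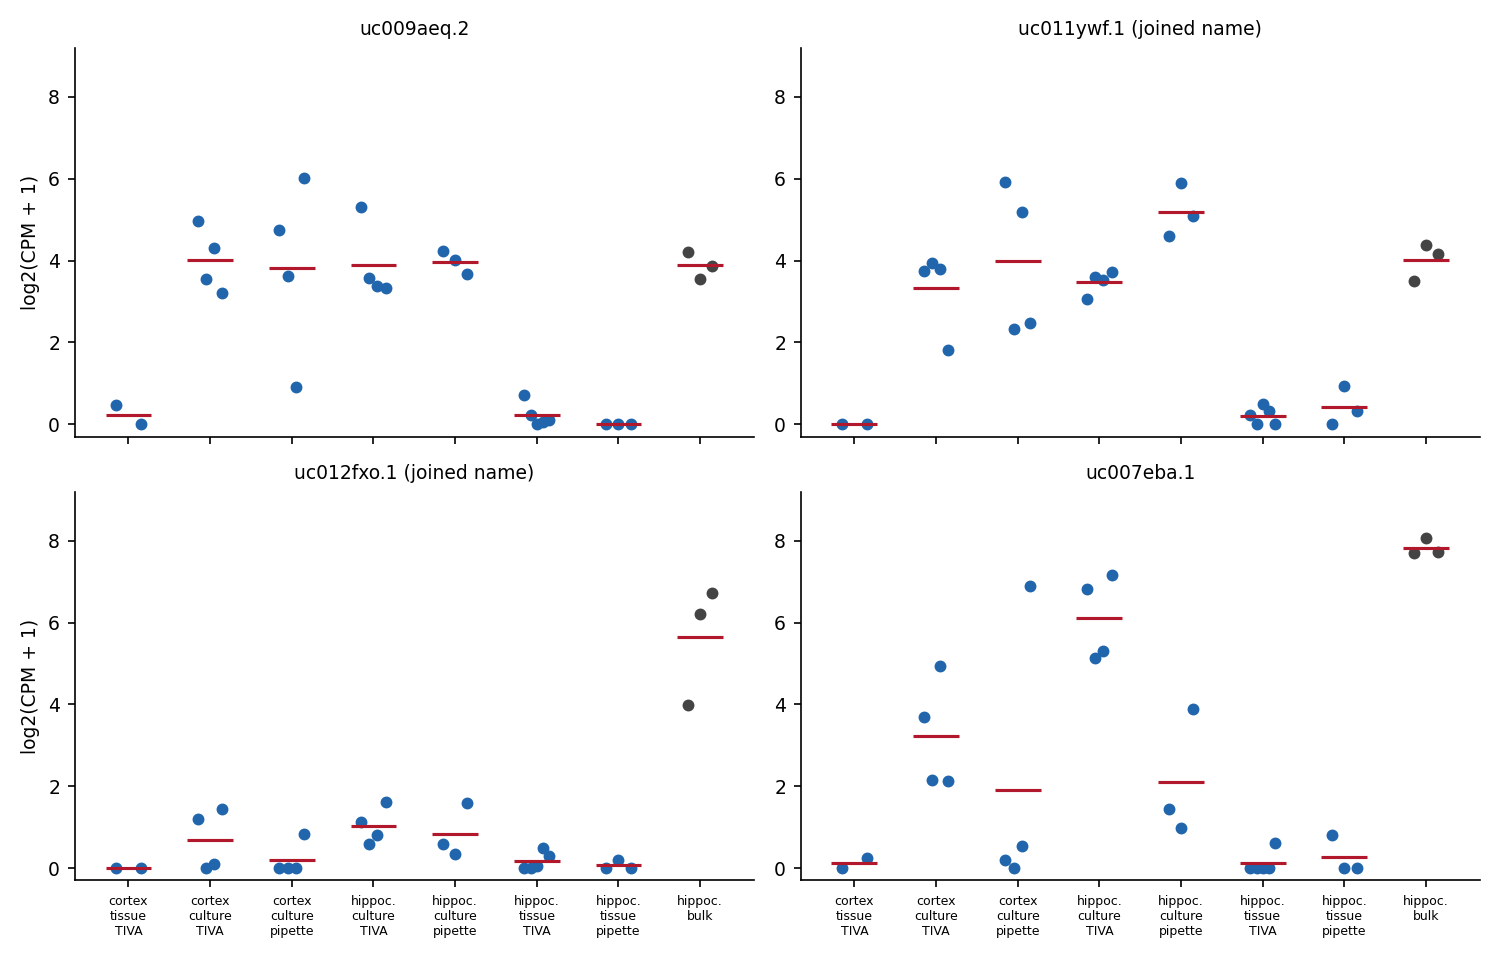
Level of the 4 named members in every library as log2(CPM + 1), 1 point per library with a line at the group mean, for the groups outside the choice, the hippocampal tissue neurons and bulk tissue. The upper pair lies near its bulk level in culture, uc012fxo.1 reaches at most 2.08 CPM in culture, and uc007eba.1 has its highest neuronal group mean in cultured hippocampal TIVA neurons.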

How the data were processed

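The deposited tables hold whole-number read counts per feature, 1 table per library, raw and not normalized. Per the submitters' processing notes, reads were handled with CASAVA 1.8.1 and counted with HTSeq on mouse build mm9. Aligner, overlap mode and strand setting were not given in the sources used here. Overlapping, antisense and near-identical features could therefore not be told apart. The 5 HTSeq summary lines name no feature and were left out of library sizes. The no-feature line held 15.8% to 81.1% of counted reads.

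CPM, reads per 1000000 assigned reads of a library, was taken over all 28661 features. Features were grouped and compared with Python 3.11.15 and pandas 2.3.3, TMM factors came from edgeR 4.0.16, and size factors from DESeq2 1.42.0. A feature counted as apart between groups when all its libraries in 1 group lay on 1 side of the other group and the mean log2(CPM + 1) differed by 1 or more. The selection rule was run on simulated counts, with features set well above the bulk limit and absent from tissue neurons. Their recovery was fixed by that design. It therefore checks the working of the rule only, and says nothing about the real members. No 2 libraries held identical counts, and the lowest chi-square per degree of freedom within a group was 45.7. Groups follow the source name in the labels. Replicate numbers follow record order and pair no libraries. The labels give no batch.

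The members, the limits and the comparisons were chosen with earlier results of these data known. The named members were, by a fixed rule, the 2 highest and 2 lowest by mean culture minus bulk log2(CPM + 1). Alternatives were another scaling, thinning to the smallest total, other limits, other pseudocounts, a filter on low values and leaving out each library. None of 55419 identifiers matched the gene tables, so marker lists were not used.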

Additional observations from a re-analysis of the deposited data

Results flagged for a closer look

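Within groups of 4 libraries, 21 sets of values were examined for a library far from the others, and 5 held one. The limit would set apart about 1 group in 20 among independent, normally distributed values. These values need not be so distributed and the sets share libraries, so 5 of 21 cannot be set against that rate.

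The summed level of the members was 3046 CPM in the fourth cultured cortical pipette library, against 970.1 to 1294 CPM in the others. A single member made up 48.7% of that sum.

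The feature uc007eba.1 had 119 CPM in the same library and at most 0.445 CPM in the other cortical pipette libraries.

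The feature uc012fxo.1:uc009kod.2:uc012fxp.1 had 0.781 CPM (9 reads) in that library too, against 0 reads in the other cortical pipette libraries. With 0 reads in the others, any read would have set this library apart.

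The feature uc009aeq.2 had 38.6 CPM in the first cultured hippocampal TIVA library and at most 10.9 CPM in the others of that group.

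The feature uc011ywf.1:uc011ywh.1:uc007pln.2:uc007plo.2:uc011ywg.1:uc007plm.2 had 2.51 CPM in the fourth cultured cortical TIVA library, against at least 12.5 CPM in the others.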

How the results depend on the processing

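The cortical minus hippocampal pipette difference in share, −2 points and within the spread between libraries, took both signs under the alternatives, some of them beyond that spread. No difference that was itself larger than the spread changed sign under the alternatives run, though cortical minus hippocampal TIVA was 0 over the members at 0 reads in tissue. Alternatives on the choice of tissue neurons, the tissue limit of 2 CPM and the counts of members with ranges apart were added after seeing the data. Below, shares are medians over libraries at 10 CPM or more and differences from bulk are medians on the log2(CPM + 1) scale.

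The number of members varied with the scaling, the limits and the tissue neurons used. It was 54 under TMM and 56 under DESeq2 size factors, of which 54 and 55 were among the 75. It was 125 outside the 50 most abundant features, 27 at a bulk limit of 20 CPM and 11 at 0 reads in tissue. It was 136 with the 5 TIVA tissue neurons alone and 439 with the 3 pipette ones.

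With TMM, shares were 8.33% in cortical tissue and 13.0% in hippocampal pipette culture, TIVA minus pipette in hippocampus was 40.7 points, cortical minus hippocampal pipette 11.1 points, and cortical tissue minus bulk −4.10. With DESeq2 factors, shares were 9.82% in cortical tissue, 58.9% in hippocampal TIVA and 17.9% in hippocampal pipette culture. Differences were 41.1 points for hippocampal TIVA minus pipette, 1.79 for cortical minus hippocampal TIVA and 5.36 for the pipette groups, and from bulk −4.01 in cortical tissue and −0.90 in hippocampal TIVA. Outside the 50 most abundant features, hippocampal TIVA had 61.6%, 34.4 points above pipette and 0.800 below cortical TIVA, and differences from bulk were −4.13 in cortical tissue and −0.87 in hippocampal TIVA. Counts of members with ranges apart were always taken over the 75 found with library totals. Of these, 27, 28 and 28 were higher by TIVA in hippocampus under these scalings, against 12.7%, 15.5% and 13.7% of all bulk features.

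At a limit of 1 CPM, shares were 12% in cortical tissue, 94% and 44.7% in cortical TIVA and pipette culture, and 86.7% and 81.3% in hippocampal TIVA and pipette culture, with −82 points for cortical tissue minus culture and −36.7 for the pipette groups. At 50 CPM they were 10% and 8% in cortical and 2% and 1.33% in hippocampal TIVA and pipette culture, with differences of −4.67, 2 for cortical TIVA minus pipette, and 6.67 for the pipette groups. At 0 reads in tissue, shares were 9.09% in cortical tissue, 27.3% in cortical TIVA and 9.09% in hippocampal pipette culture. Differences were −18.2 for cortical tissue minus culture, 9.09 for cortical TIVA minus pipette, 0 between the TIVA groups and 9.09 between the pipette groups, and from bulk −2.36 in cortical and −2.13 in hippocampal TIVA culture.

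At a bulk limit of 20 CPM, the pipette groups differed by −11.1 points, and differences from bulk were −5.08 in cortical tissue and −4.60 in cortical pipette culture. With the 5 TIVA tissue neurons alone, cortical tissue had 9.56% and −4.11, and cortical pipette culture 32%. With the 3 pipette ones, shares were 13.4% in cortical tissue, 77.0% and 43.2% in cortical TIVA and pipette culture and 52.4% in hippocampal pipette culture. The pipette groups then differed by −9.23 points, and differences from bulk were −4.10 in cortical tissue, −1.65 in cortical and −1.25 in hippocampal pipette culture. With a pseudocount of 10 CPM, differences from bulk were −1.55 in cortical tissue, −1.09 in cortical pipette, −0.78 in hippocampal TIVA and −1.14 in hippocampal pipette culture. Cortical tissue minus culture was −69.3 points over members with a mean of 5 CPM or more. Summed counts gave −1.74 in cortical pipette culture, thinning −4.14 in cortical tissue, and a tissue limit of 2 CPM −4.14 and 7.61% there. The causes of these moves were not tested.

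Leaving out each library in turn gave 76 to 162 members, the highest without the first bulk library. Shares ran from 5.33% to 8.95% in cortical tissue, 48.1% to 63.3% in cortical TIVA, 20% to 30.3% in cortical pipette, 28.1% to 49.3% in hippocampal TIVA and 19.8% to 33.3% in hippocampal pipette culture. Differences from bulk ran from −4.29 to −4.01, −1.01 to −0.35, −2.98 to −2.45, −1.67 to −1.28 and −2.64 to −1.97 in the same order. Differences in share ran from 28.0 to 39.3 points for cortical and 2.67 to 22.7 for hippocampal TIVA minus pipette, −56.9 to −42.3 for cortical tissue minus culture, 10 to 30 for cortical minus hippocampal TIVA and −6.82 to 3.33 for the pipette groups. Over the 75 members found with all libraries, ranges were apart in 24 to 32 higher by TIVA in cortex and 14 to 23 in hippocampus. In 60 to 67 they were apart and lower in cortical tissue. Ranges of fewer libraries part more easily for any feature, and the shares of all bulk features were not taken without a library.

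No paired analysis was possible because the labels give no replicate numbers shared between groups, and no result comes from a test. With 1 cell per neuron library and 2 to 4 libraries per group outside hippocampal tissue neurons, ranges show the spread between these libraries only. Low depth limits cortical tissue, where a count of 0 allows up to 0.567 CPM.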
